A study of Mus musculus with 10 samples.

Results

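Interferon-stimulated genes are the genes that a cell switches on when it senses interferon or viral nucleic acid, and 34 of them were followed by gene symbol through 10 RNA-seq libraries of mouse pancreatic tumour epithelium. The count table listed 33 of the 34, among 15624 genes in all. Rnf213 was not analysed here. Of the 33, 28 had enough reads in enough libraries to be tested, and Ifit2, Ifit3, Oas2, Oas3 and Rsad2 did not. The members passed this filter through reads in either group. Counts over the 28 therefore leave out members with reads in few libraries. Ifit3 was left out with 456 reads in corn oil replicate 1 and at most 76 in any other library.

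The tumours were established pancreatic ductal adenocarcinomas of KPFSR mice, from which epithelium was cut by laser out of frozen sections. Knowledge of the model, not the labels, adds what both groups carried: tumour-driving alleles turned on by a Flp recombinase under the Pdx1 promoter, a floxed Slc7a11 gene, and a Cre recombinase that is active only with tamoxifen. The 4 control libraries came from corn oil, the vehicle, and the 6 others from tamoxifen, which in this model deletes Slc7a11, the cystine importer. There was no group given tamoxifen without the floxed gene, so the drug and the deletion cannot be told apart. The sources used here give neither strain, age, dose nor time after treatment, and do not tie samples to animals. The p-values therefore reflect only how these libraries vary, and they are too small if some libraries share an animal.

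Total counts ran from 16473902 (replicate 1) to 36132316 in corn oil and from 6899347 (replicate 6) to 19462115 in tamoxifen. Levels are given as normalised CPM, which are counts scaled to library size with TMM factors, and 3 counts in a library correspond to 0.0915 to 0.490 normalised CPM. Slc7a11 stood at 23.2 to 40.1 normalised CPM in corn oil and 5.90 to 19.3 in tamoxifen, and corn oil replicate 1, at 38.9, lay within its group. Tamoxifen replicates 1 to 3 resembled each other (Pearson's r 0.921 to 0.963 for log2 CPM over the tested genes, which are not independent replicates) more than any other pair did (at most 0.878). Corn oil replicate 1 stood apart for the genes described here, so the members' log2 fold changes are also given without it. In bulk tissue, fewer cells of a type and less RNA per cell cannot be told apart.

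Type I and type III interferons act through their receptors and the kinases Jak1 and Tyk2 on a complex that holds Stat2 and Irf9 and binds the interferon-stimulated response element in the promoters of its target genes. Interferon gamma acts mainly through another promoter element, the gamma-activated site. The induced genes encode sensors of foreign or misplaced nucleic acid, proteins that block viral growth, and feedback regulators such as Usp18. Tumour epithelial cells, like most cell types, can run this program.

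The promoters show what many of the members share. In the 250 bases before the RefSeq start (GRCm38.p6), the core of the interferon-stimulated response element, GAAANNGAAA on either strand, was found in 11 of the 27 members with a window (40.7%) and in 3.46% of 27025 genes. The 11 were Stat2, Ifit1, Ifit3, Oas1a, Oas3, Rsad2, Bst2, Gbp2, Gbp3, Isg15 and Cxcl10. The core of the gamma-activated site, TTCNNNGAA, which reads the same on both strands, was found for Irf1, Ifit2, Oas1a and Bst2, 14.8% of members and 8.13% of genes. A match is a description of letters and not a site shown to be bound. Printed below are 3 promoters with the response element (Isg15, Ifit1, Gbp3), 1 with the gamma-activated site (Irf1) and 1 member with neither (Oasl1), each on its gene's strand with the matches in capitals.
Isg15 promoter: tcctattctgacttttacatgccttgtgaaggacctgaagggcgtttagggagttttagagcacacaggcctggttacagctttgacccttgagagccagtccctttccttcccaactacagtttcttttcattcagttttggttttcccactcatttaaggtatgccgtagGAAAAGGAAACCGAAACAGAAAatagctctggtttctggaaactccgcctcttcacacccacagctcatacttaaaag
Ifit1 promoter: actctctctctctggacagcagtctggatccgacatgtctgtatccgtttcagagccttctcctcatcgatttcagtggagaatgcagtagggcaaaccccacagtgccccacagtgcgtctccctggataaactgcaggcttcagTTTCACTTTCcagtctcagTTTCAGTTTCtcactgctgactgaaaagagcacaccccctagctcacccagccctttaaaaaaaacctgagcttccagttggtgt
Gbp3 promoter: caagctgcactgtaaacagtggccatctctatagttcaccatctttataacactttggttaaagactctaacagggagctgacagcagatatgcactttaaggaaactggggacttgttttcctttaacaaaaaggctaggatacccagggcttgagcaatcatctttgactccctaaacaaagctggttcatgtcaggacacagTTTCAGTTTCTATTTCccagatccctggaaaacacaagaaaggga
Irf1 promoter: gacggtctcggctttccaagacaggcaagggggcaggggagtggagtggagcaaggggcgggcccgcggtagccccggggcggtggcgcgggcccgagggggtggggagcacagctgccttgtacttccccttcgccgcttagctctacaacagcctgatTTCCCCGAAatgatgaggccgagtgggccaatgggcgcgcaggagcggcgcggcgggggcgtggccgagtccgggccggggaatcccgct
Oasl1 promoter: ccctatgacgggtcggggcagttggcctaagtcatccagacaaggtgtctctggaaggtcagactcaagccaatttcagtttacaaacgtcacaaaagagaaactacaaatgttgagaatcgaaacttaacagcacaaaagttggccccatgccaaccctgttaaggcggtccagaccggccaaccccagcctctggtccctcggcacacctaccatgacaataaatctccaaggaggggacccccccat
The Isg15 window lies at chr4:156200819-156201068 on the minus strand and holds 3 overlapping matches. Those of Ifit1, at chr19:34640639-34640888, and Gbp3, at chr3:142559794-142560043, hold 2 each, on the plus strand of the build. The Irf1 window lies at chr11:53769764-53770013 and the Oasl1 window at chr5:114922990-114923239, both on the plus strand. Gbp3 and Irf1 have a second RefSeq start, whose window held no match.

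Between tamoxifen and corn oil, none of the 28 tested interferon-stimulated genes passed the edgeR quasi-likelihood test at an FDR of 0.05, where 0.0384% of all 13006 genes did (5 genes). The lowest adjusted p among the members was 0.437, for Gbp3. At an unadjusted p under 0.05, 1 member (Gbp3) was lower with tamoxifen, against 5.27% of all genes, and 0 were higher, against 4.43%. No member had groups that did not overlap, against 3.23% of all genes. The median log2 fold change of the 28 was -0.64, with 8 higher and 20 lower, beside a median of -0.01 over all tested genes. DESeq2, limma voom and edgeR with robust dispersion also called 0 members, although DESeq2 gave a value for only 24 of the 28.

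The members varied widely within corn oil. Corn oil replicate 1 was the highest of all 10 libraries for 24 of the 33 listed members, where it was highest for 9.47% of all genes with a count. It was highest by at least 2-fold for 14 of the 28 tested members, against 1.14% of tested genes. The mean log2 CPM of the 28 was 5.11 in corn oil replicate 1 and 1.15, 1.27 and 1.89 in replicates 2 to 4. The tamoxifen libraries lay between these, at 2.77, 2.62, 2.83, 2.15 and 3.96 in replicates 1 to 5, except replicate 6, the shallowest, at 1.05. The 33 members summed to 1775 normalised CPM in corn oil replicate 1 and to 315 to 405 in the other corn oil libraries, with 382 to 653 in tamoxifen.

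**Figure D1:**
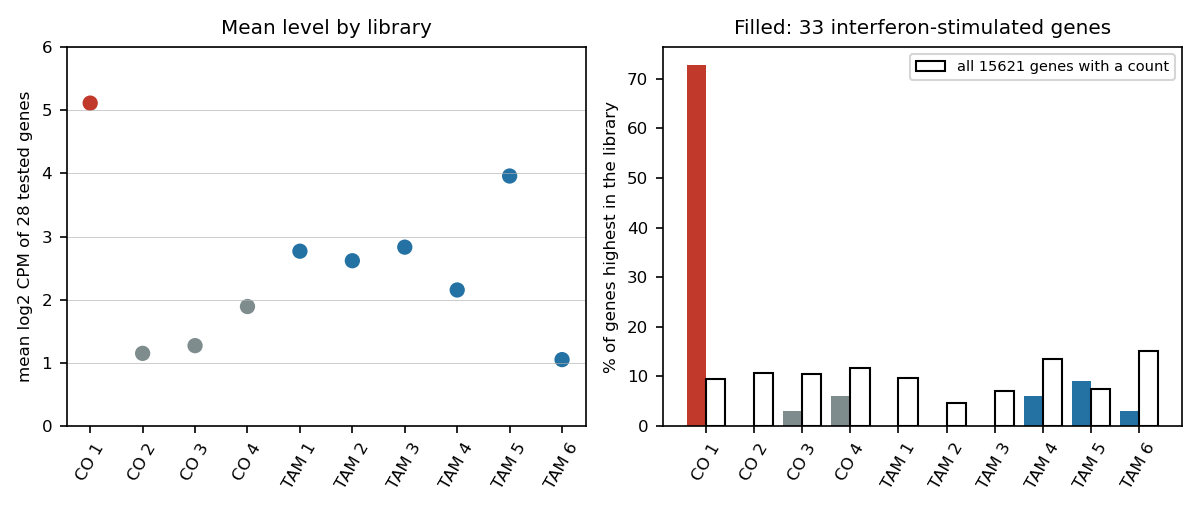
Left, the mean log2 CPM of the 28 tested interferon-stimulated genes in each library (CO, corn oil; TAM, tamoxifen), with 1 point per library. Right, the share of the 33 listed members (filled bars) and of all 15621 genes with a count (outlined bars) for which that library was the highest of 10. Corn oil replicate 1 has the highest mean, 5.11, and is the highest library for 24 of 33 members.

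Leaving out corn oil replicate 1 turned the direction of the group difference. The median log2 fold change was then 1.12, with 20 members higher with tamoxifen and 8 lower. Of the 28, 12 went from lower to higher while 0 went the other way. That library was left out because these members were high in it, so its removal had to raise most of their fold changes. The counts here, and the shares set beside all genes, are therefore a description and not support for a group difference. At an unadjusted p under 0.05, 5 members were higher (17.9% of 28, against 4.32% of 13326 genes) and 0 lower. They were Ifi44, Mx2, Bst2, Isg15 and Irf7. None passed the FDR, where 0.0% of all genes did, and their lowest adjusted p was 0.456 (edgeR). With tamoxifen replicates 1 to 3 also counted as 1 sample, a choice made after seeing the data, the median was 0.72, 19 members were higher and 8 lower, and 3 were higher at an unadjusted p under 0.05. The comparison therefore has no call in either form, and its sign turned when 1 control library was left out. It also turned with all 10 libraries kept in a limma voom fit that weights them by quality. There the median was 0.35, with 15 members higher and 13 lower. Without weights, and with all 10 libraries kept, the mean log2 CPM of the 28 averaged 2.36 in corn oil and 2.56 in tamoxifen. The sign therefore also depended on the scale used, and the part played by the weights was not tested.

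**Figure D2:**
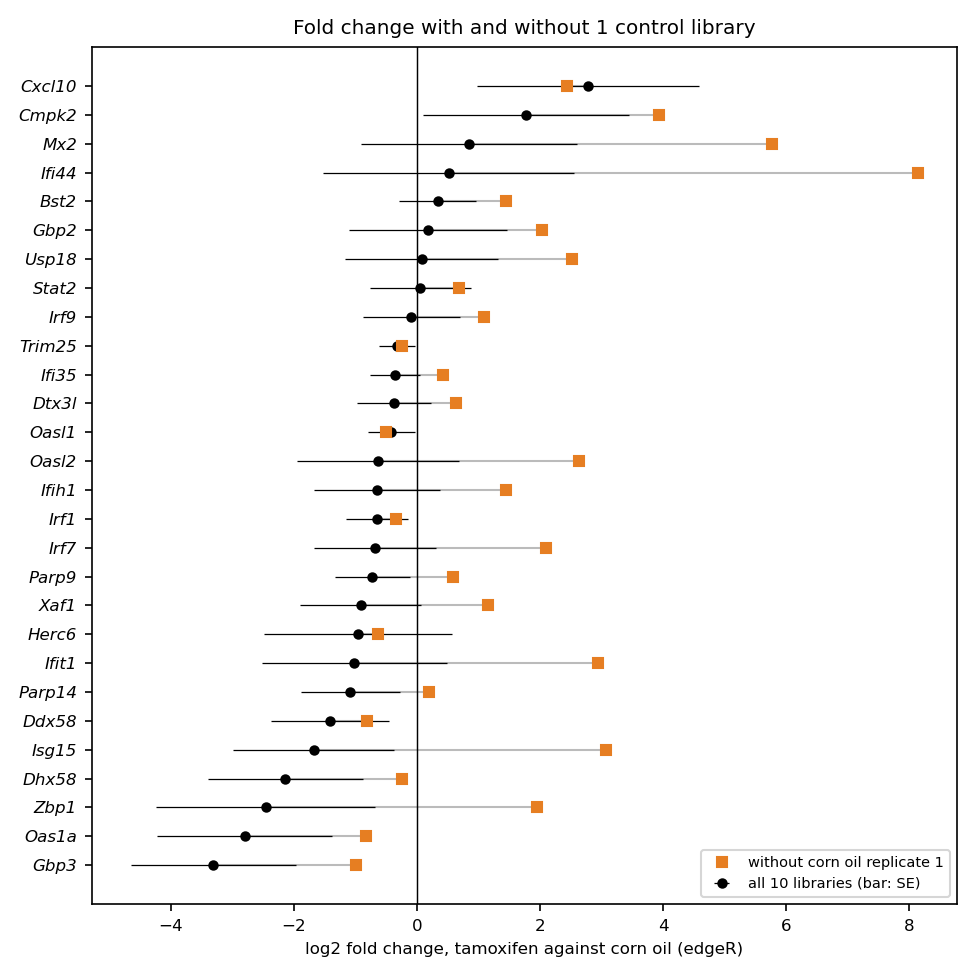
Log2 fold change of tamoxifen against corn oil for the 28 tested interferon-stimulated genes (edgeR), over all 10 libraries (black, with SE) and without corn oil replicate 1 (orange). The median goes from -0.64 to 1.12, and the value for Ifi44 without that library depends on the prior count because the 3 other corn oil libraries hold no read.

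Within corn oil, the SD of log2 CPM had a median of 2.29 over the 28 members and 0.654 over all tested genes. It ran from 0.37 for Trim25 to 4.13 for Zbp1, and 15 of the 28 exceeded 2.08, as did 1301 of the 13006 tested genes. Within tamoxifen the medians were 1.80 and 0.828, and 1 of the 28 exceeded 2.48, as did 1301 of all genes. The SD was larger in corn oil than in tamoxifen for 22 of the 28 members (78.6%) and for 39.2% of all genes. Over corn oil replicates 2 to 4 alone the medians were 1.21 and 0.650. Low counts add to these SDs, and with a filter of 5 CPM in 4 libraries, which kept 18 members, the medians were 1.71 and 0.565.

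**Figure D3:**
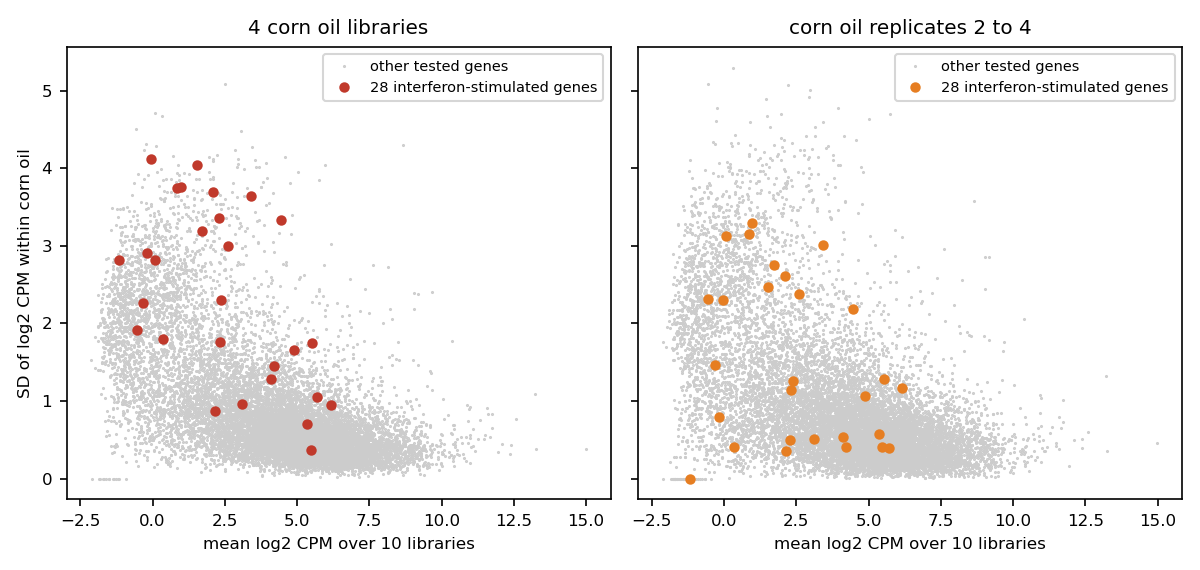
SD of log2 CPM within corn oil (vertical) against mean log2 CPM over the 10 libraries (horizontal) for each tested gene, over all 4 corn oil libraries (left) and over replicates 2 to 4 (right). The 28 interferon-stimulated genes (coloured) have a median SD of 2.29 on the left and 1.21 on the right, against 0.654 and 0.650 over all tested genes. The other genes are drawn in grey.

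The other corn oil libraries were low for most members. In corn oil replicates 2, 3 and 4, 12, 9 and 8 of the 33 members had no read, while 14.1%, 10.9% and 13.8% of all genes had none. In replicate 1, which held fewer counts, every member had a read and 10.6% of all genes had none. Among tamoxifen libraries, replicate 5 was highest of the 6 for 18 of 33 members, where it was highest for 17.7% of all genes, and replicate 6 was lowest for 14, where it was lowest for 26.2%. Set against the mean of the other libraries of its group, corn oil replicate 1 was higher in 26 of 28 members by a median of 3.69 on the log2 scale (all genes 0.062), and tamoxifen replicate 5 in 26 by a median of 1.78 (all genes 0.20). Tamoxifen replicate 6 was higher in 4 of 28, with a median of -1.84 (all genes -0.18).

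**Figure D4:**
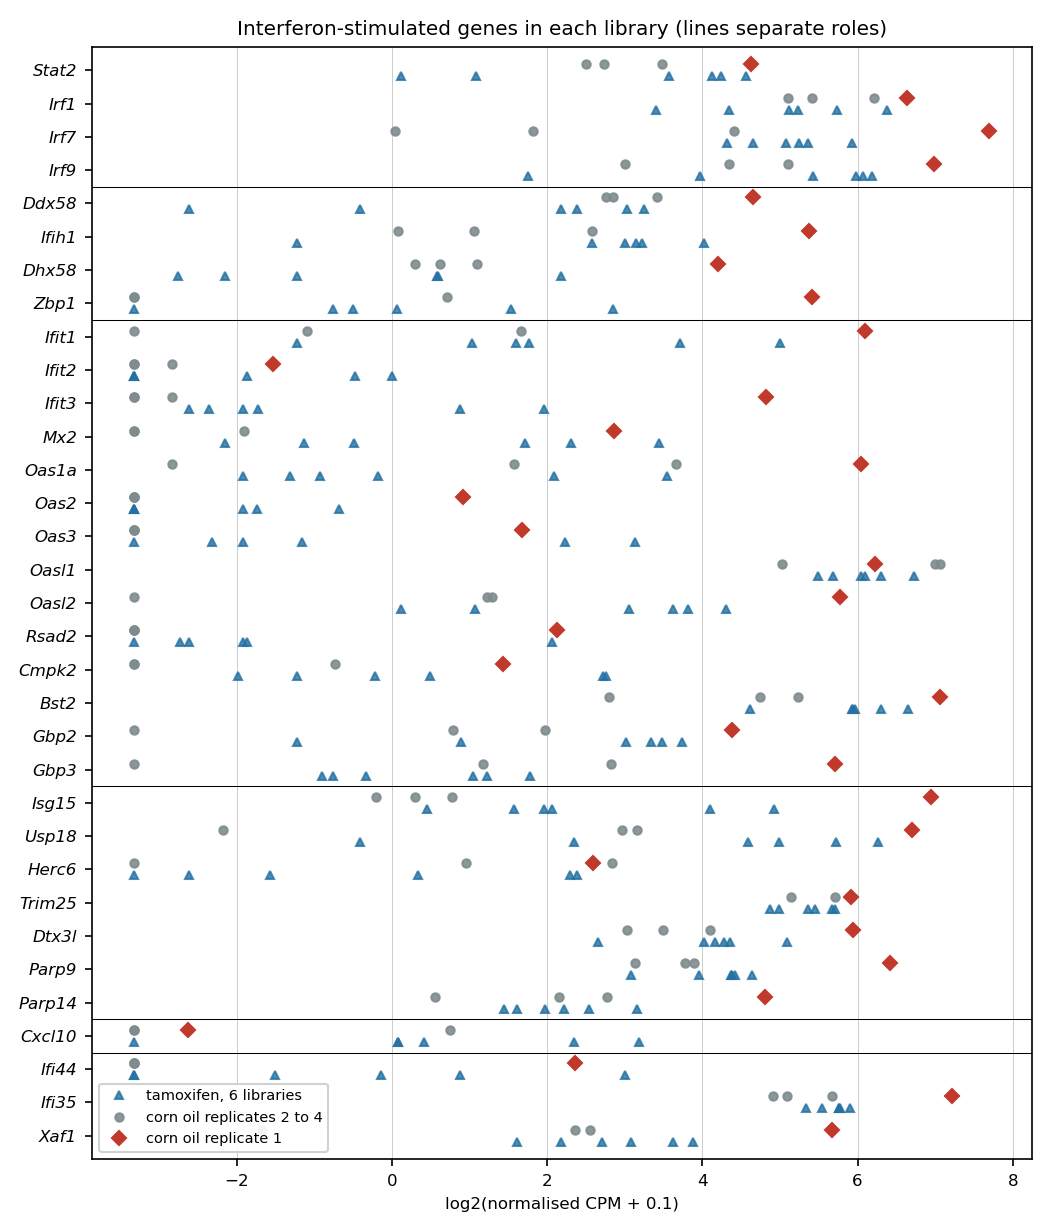
Level of each of the 33 listed interferon-stimulated genes in each library, as log2 of normalised CPM plus 0.1, with corn oil replicate 1 as red diamonds, corn oil replicates 2 to 4 as grey circles and tamoxifen as blue triangles. Genes are ordered by role from transcription factors (top) to other members (bottom), and corn oil replicate 1 lies farthest right for 24 of the 33.

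Among the transcription factors that turn the program on, corn oil replicate 1 was the highest library for each of the 4, and the median log2 fold change was -0.37 (0.89 without that library). Irf7, which amplifies interferon production, stood at 207.5, 21.04, 0.927 and 3.41 normalised CPM in corn oil replicates 1 to 4. In tamoxifen its lowest, median and highest values were 19.8, 35.8 and 60.8. The 6 tamoxifen libraries thus lay close together, 3 of the 4 corn oil libraries lay below their median, and corn oil replicate 1 lay above all of them. The log2 SD was 3.33 within corn oil and 0.57 within tamoxifen. The log2 fold change stood at -0.68 (SE 0.99, edgeR adjusted p 0.901), or 2.10 (SE 0.83, adjusted p 0.49) without corn oil replicate 1.

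Irf9, the DNA-binding subunit of the Stat complex, stood at 126, 7.90, 34.1 and 20.2 normalised CPM in corn oil replicates 1 to 4, and at 3.27, 53.1 and 73.0 (lowest, median, highest) in tamoxifen. Stat2, its partner, stood at 24.7, 11.0, 6.57 and 5.53 in corn oil and at 0.980, 14.5 and 23.6 in tamoxifen. For both genes the 3 highest tamoxifen values were those of replicates 1 to 3, and replicate 6 was the lowest library of all. The log2 fold changes were -0.089 (SE 0.79) and 0.056 (SE 0.82), with edgeR adjusted p of 0.987 and 0.993, and were 1.09 and 0.69 without corn oil replicate 1. Without tamoxifen replicates 1 to 3 that of Stat2 was -1.27. Irf1, a factor strongly induced by interferon gamma, varied less, with 99.4, 74.1, 42.3 and 34.4 normalised CPM in corn oil and 10.5, 35.9 and 83.1 in tamoxifen. Its groups overlapped over most of their range, with a log2 fold change of -0.65 (SE 0.50 and adjusted p 0.747 in edgeR), or -0.34 without corn oil replicate 1.

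The 4 sensors of nucleic acid were all highest in corn oil replicate 1, and all 4 had a lower mean level with tamoxifen on the fitted scale (median log2 fold change -1.77, 0.60 without corn oil replicate 1). Zbp1, a sensor of Z-form nucleic acid that can trigger necroptosis, showed the largest corn oil SD of the members. It had 689 reads in corn oil replicate 1, 0 in replicates 2 and 3 and 37 in replicate 4, or 42.4, 0, 0 and 1.54 normalised CPM. Tamoxifen values were 0, 0.777 and 7.11 (lowest, median, highest), so all of them lay below corn oil replicate 1. The log2 fold change was -2.45 (SE 1.78, edgeR adjusted p 0.727) and 1.95 without that library. The cytosolic RNA helicases Ddx58 (RIG-I), Ifih1 (MDA5) and Dhx58 (LGP2) stood at 25.1, 41.4 and 18.3 normalised CPM in corn oil replicate 1. Their ranges in the other corn oil libraries were 6.65 to 10.5, 0.956 to 5.88 and 1.13 to 2.04. Tamoxifen ranges reached 9.43, 16.1 and 4.43. Only Ifih1 changed sign without corn oil replicate 1, from -0.64 to 1.45, while Ddx58 went from -1.41 to -0.80 and Dhx58 from -2.13 to -0.24.

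Of the 14 antiviral effectors, 9 were tested, 4 with a higher and 5 with a lower fitted level with tamoxifen (median log2 fold change -0.41, 2.03 without corn oil replicate 1). Ifit1, which binds RNA lacking a host cap, stood at 68.6, 0.366, 0 and 3.08 normalised CPM in corn oil replicates 1 to 4 and at 0.327, 3.12 and 31.8 (lowest, median, highest) in tamoxifen. The first of these was above every tamoxifen library, and the other 3 were below the tamoxifen median. The log2 fold change was -1.01 (SE 1.51, with edgeR's adjusted p at 0.902), or 2.95 without that library. Ifit2 and Ifit3, its relatives in a cluster on chromosome 19 (GENCODE M21, from 34550694 to 34650009), were low in too many libraries to be tested. Ifit3 had 456 reads in corn oil replicate 1 against 0 or 1 in the other corn oil libraries and at most 76 in tamoxifen.

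Oligoadenylate synthetases make the signal that activates RNase L. The members with Oas or Oasl names (Oas1a, Oas2, Oas3, Oasl1 and Oasl2) all lie on chromosome 5, and whether each makes that signal was not examined. Oas1a stood at 66.0, 2.87, 0.0403 and 12.6 normalised CPM in corn oil replicates 1 to 4 and at 0.163, 0.605 and 11.6 (lowest, median, highest) in tamoxifen. Tamoxifen against corn oil gave -2.80 (SE 1.43) on the log2 scale, with an edgeR adjusted p of 0.567, and -0.82 without corn oil replicate 1. Oasl2 stood at 54.5, 0, 2.34 and 2.24 in corn oil and at 0.980, 10.2 and 19.7 in tamoxifen. For both genes corn oil replicate 1 exceeded every tamoxifen library, and for Oasl2 4 of the 6 tamoxifen libraries exceeded the other 3 corn oil libraries. Its log2 fold change was -0.63 (SE 1.32, edgeR adjusted p 0.939) and 2.64 without that library.

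Oasl1, which in mice holds back the translation of Irf7, did not follow the others. It stood at 74.7, 127, 32.4 and 134 normalised CPM in corn oil replicates 1 to 4 and at 44.99, 67.1 and 106 (lowest, median, highest) in tamoxifen. Its highest library was corn oil replicate 4 and its lowest corn oil replicate 3. On the log2 scale tamoxifen differed by -0.41 (SE 0.38, edgeR adjusted p 0.802), and by -0.50 without corn oil replicate 1. Oasl1 and Oasl2 are neighbours (114923240 to 114937915 and 114896936 to 114912234 on chromosome 5), and the promoter printed for Oasl1 held neither motif.

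Bst2 (tetherin), which holds budding virus at the cell surface, stood at 134, 6.86, 37.6 and 26.6 normalised CPM in corn oil replicates 1 to 4. In tamoxifen it stood at 24.4, 61.9 and 101 (lowest, median, highest). As for Irf7, corn oil replicate 1 lay above every tamoxifen library and replicates 2 to 4 lay below the tamoxifen median. The log2 fold change was 0.34 (SE 0.62), with an edgeR adjusted p of 0.927. Without corn oil replicate 1 it was 1.45 (SE 0.55, unadjusted p 0.0222, adjusted p 0.471). Gbp3, a guanylate-binding protein, stood at 52.0, 0, 6.97 and 2.16 in corn oil and at 0.436, 1.33 and 3.33 in tamoxifen, so 2 corn oil libraries fell inside or below the tamoxifen range. The log2 difference of -3.31 (SE 1.34, unadjusted p 0.0283, edgeR adjusted p 0.437) was the only one under an unadjusted p of 0.05, and it was -0.99 without corn oil replicate 1. Its neighbour Gbp2 on chromosome 3 had 20.8 normalised CPM in corn oil replicate 1, 0 to 3.83 in the other corn oil libraries and 0.327 to 13.3 in tamoxifen (log2 fold change 0.18, or 2.03 without corn oil replicate 1).

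Mx2, a dynamin-like GTPase, and Cmpk2, a mitochondrial nucleotide kinase, were low, and both had a higher fitted level with tamoxifen (log2 fold changes 0.86 and 1.77, edgeR adjusted p 0.938 and 0.813). Without corn oil replicate 1 the values were 5.78 (unadjusted p 0.0209, edgeR adjusted p 0.470) and 3.94 (adjusted p 0.671), set against 4 and 12 reads in all in the other corn oil libraries. Mx2 had 116 reads in corn oil replicate 1, 0, 0 and 4 in the others and 2 to 102 in tamoxifen, and its highest level was in tamoxifen replicate 6. Cmpk2 and its neighbour Rsad2 (viperin, an inhibitor of viral replication) lie on chromosome 12. Rsad2 had 69 reads in corn oil replicate 1 and 82 in tamoxifen replicate 5, and no more than 2 in any other library. Oas2 and Oas3 likewise had no read in corn oil replicates 2 to 4, with 29 and 50 in replicate 1. Against a floor of 3 counts over those 3 libraries, the tamoxifen mean was at least 4.02-fold higher for Oas2, 62.9-fold for Oas3 and 20.6-fold for Rsad2. The Oas2 bound rests on 11 tamoxifen reads. With corn oil replicate 1 kept, Oas2 and Rsad2 were lower with tamoxifen. Their means in corn oil and tamoxifen were 0.446 and 0.148 normalised CPM for Oas2 and 1.06 and 0.755 for Rsad2. Those of Oas3 were 0.770 and 2.31. Each bound leans on 1 or 2 libraries. It was 1.97-fold for Oas2 without tamoxifen replicate 1, 28.3-fold for Oas3 without replicate 4 and 2.46-fold for Rsad2 without replicate 5. For Oas3, tamoxifen replicates 4 and 5 held 138 and 92 reads, and the other tamoxifen libraries at most 4. Ifit2 had at most 18 reads in any library.

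Isg15, the ubiquitin-like protein that gives the pathway its name, is shown in full although it was picked after its values were seen. It stood at 123, 0.762, 1.61 and 1.12 normalised CPM in corn oil replicates 1 to 4, from 2005, 25, 40 and 27 reads. In tamoxifen it stood at 1.26, 3.94 and 30.3 (lowest, median, highest), and tamoxifen replicates 4 and 5, at 17.1 and 30.3, were the next highest after corn oil replicate 1. In this gene corn oil replicate 1 was 76.6 times the next corn oil library. The log2 fold change was -1.67 (SE 1.31, edgeR adjusted p 0.752) and 3.08 (SE 1.20, unadjusted p 0.0245, adjusted p 0.481) without corn oil replicate 1.

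Usp18, which removes Isg15 from proteins and blocks the interferon receptor, stood at 104, 8.78, 0.121 and 7.69 normalised CPM in corn oil and at 0.654, 27.8 and 76.7 in tamoxifen. The log2 fold change was 0.082 (SE 1.24, edgeR adjusted p 0.993), or 2.52 without corn oil replicate 1, and tamoxifen replicates 3 and 5 came nearest to corn oil replicate 1. Dtx3l, an E3 ubiquitin ligase, and its partner Parp9, an ADP-ribosyltransferase family member, lie head to head on chromosome 16, and exons of the 2 genes overlap on opposite strands. Dtx3l stood at 61.4, 11.2, 17.1 and 8.07 in corn oil and at 6.21, 18.5 and 34.0 in tamoxifen. Parp9 stood at 85.2, 8.66, 13.6 and 14.8 in corn oil and at 8.33, 20.6 and 24.9 in tamoxifen. In both, corn oil replicate 1 was above all tamoxifen libraries and the other 3 were below the tamoxifen median. Their log2 fold changes were -0.37 and -0.72 (edgeR adjusted p 0.912 and 0.781), and 0.65 and 0.58 without corn oil replicate 1. Parp14, an ADP-ribosyltransferase beside them, stood at 27.9 in corn oil replicate 1 and at 1.37 to 6.74 in the others, with 2.61 to 8.85 in tamoxifen (log2 fold change -1.08, or 0.19 without corn oil replicate 1).

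Trim25, an E3 ligase that acts on RIG-I, was the steadiest member. It stood at 60.1, 35.1, 60.2 and 52.3 normalised CPM in corn oil replicates 1 to 4 and at 29.1, 42.5 and 52.3 (lowest, median, highest) in tamoxifen. No library stood apart, and its log2 fold change was -0.32 (SE 0.29, edgeR adjusted p 0.798), or -0.24 without corn oil replicate 1. Herc6, the main ligase of Isg15 in mice, was low, with 0 to 7.03 normalised CPM in corn oil and 0 to 5.12 in tamoxifen, and was highest in corn oil replicate 4 (log2 fold change -0.95, or -0.63 without corn oil replicate 1). Over the 7 tested genes of this group the median log2 fold change was -0.72, and 0.58 without corn oil replicate 1.

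Ifi35, an interferon-induced leucine zipper protein, stood at 148, 34.0, 29.9 and 50.9 normalised CPM in corn oil and at 40.2, 54.1 and 59.8 in tamoxifen, where it had the smallest log2 SD of the members that are described by library, 0.21. Corn oil replicates 2 and 3 lay below and replicate 1 above every tamoxifen library, and the log2 fold change was -0.35 (SE 0.41, edgeR adjusted p 0.864), or 0.43 without corn oil replicate 1. Xaf1, a partner of an inhibitor of apoptosis, stood at 50.7, 0.213, 5.76 and 5.03 in corn oil and at 2.95, 7.38 and 14.7 in tamoxifen. The log2 difference was -0.91 (SE 0.99, edgeR adjusted p 0.845) and 1.16 without corn oil replicate 1. Ifi44 had 82 reads in corn oil replicate 1, 0 in the other 3 and 0 to 159 in tamoxifen, where replicate 5 was highest. With all libraries kept, its log2 fold change was 0.52 (SE 2.03, edgeR adjusted p 0.974). Against a floor of 3 counts over corn oil replicates 2 to 4, its tamoxifen mean was at least 48.6-fold higher (15.3-fold without tamoxifen replicate 5), and the median of the 28 members without corn oil replicate 1 was 1.12 with Ifi44 at that bound.

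Cxcl10, the chemokine that draws activated T cells and the only chemokine among the members, had another pattern. It had 1, 0, 39 and 0 reads in corn oil replicates 1 to 4, or 0.0616, 0, 1.57 and 0 normalised CPM. Tamoxifen values ran from 0 to 8.99 and were highest in replicates 4 and 5, at 8.99 and 4.97. It was thus nearly absent from the library in which most other members were highest, and its log2 fold change was 2.79 (SE 1.80, edgeR adjusted p 0.690), or 2.44 without corn oil replicate 1. Its gene shares exon sequence with Art3 on the opposite strand.

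Divided by exon length, which allows genes to be compared, the order of levels differed between libraries. In corn oil replicate 1, Isg15 was highest at 163 normalised CPM per kilobase, followed by Bst2 at 148 and Ifi35 at 86.0. In the median of corn oil replicates 2 to 4, Oasl1 led at 48.9 per kilobase, Bst2 stood at 29.5 and Isg15 at 1.49. In the median of tamoxifen, Bst2 led at 68.6, Ifi35 stood at 31.4 and Isg15 at 5.21. Of the listed members 13 share exon sequence with another annotated gene, so reads of such pairs may be mixed. The library kits do not mark strand, which matters for pairs on opposite strands, such as Irf7 with Phrf1. Irf9 and Rnf31 lie on the same strand, where marking strand would not separate their reads. Reads of near-identical copies, such as Oas1a and Oas1g or Ifit3 and Ifit3b, may also have been shared or lost.

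Upstream of these genes, the 9 interferon ligands looked for were not analysed here. The 6 receptor chains were all tested, and in edgeR none passed the FDR or had an unadjusted p under 0.05. Their median SD within corn oil was 0.54 on the log2 scale, beside 0.654 over all genes. No gene of the signalling, negative regulator or MHC class I lists passed the FDR or had an unadjusted p under 0.05 either. Ifnar1 and Ifnar2, the type I receptor, were at 66.3 ± 19.2 and 68.2 ± 25.7 normalised CPM in corn oil (SD, n = 4) and at 56.2 ± 14.0 and 54.2 ± 12.3 (SD, n = 6) in tamoxifen. Ifngr1 and Ifngr2, the receptor for interferon gamma, had log2 fold changes of 0.65 and -0.32 (edgeR adjusted p 0.545 and 0.71), and 0.83 and -0.13 without corn oil replicate 1. Ifnlr1 and Il10rb, which form the type III receptor, had values of -0.41 and 0.052 (edgeR adjusted p 0.943 and 0.982). Ifngr2, 1 of the 6, was highest in corn oil replicate 1.

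Among 12 signalling genes none passed the FDR (edgeR), and their median log2 fold change was -0.25. The most abundant, Jak1 and Stat3, had log2 fold changes of 0.38 and 0.37. Of 11 tested adaptors and nucleases of nucleic acid sensing, 0 passed the FDR and 2 had an unadjusted p under 0.05, beside 5.27% of all genes on the lower side. Both were lower in every tamoxifen library than in any corn oil library, as the groups did not overlap for 3.23% of all genes. Mavs, the mitochondrial adaptor of RIG-I and MDA5, was at 47.0 ± 10.7 (SD, n = 4) and 30.0 ± 2.88 (SD, n = 6) normalised CPM (log2 fold change -0.65, edgeR adjusted p 0.448). Without corn oil replicate 1 its log2 fold change was -0.48, with an unadjusted p of 0.132. Rnaseh2b, a subunit of the nuclease that removes ribonucleotides from DNA, was at 34.0 ± 3.49 and 15.9 ± 5.37 (log2 fold change -1.10, edgeR adjusted p 0.311). That of Rnaseh2b was -1.17 without corn oil replicate 1. The abundant Rnaseh2a and Rnaseh2c were at 0.24 and -0.015. Of 8 negative regulators none passed, and Socs3, Ptpn11 and Trim28 had log2 fold changes of 0.98, 0.25 and 0.15. Corn oil replicate 1 was the highest library for 5 of the 12 listed adaptors and nucleases (41.7%). It was highest for 1 of 12 signalling genes and 2 of 8 negative regulators, beside 9.47% of all genes with a count.

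A further 59 listed interferon-stimulated genes, 48 of them tested, were also looked at. Corn oil replicate 1 was the highest library for 23 of the 59 (39.0%), beside 24 of 33 members and 9.47% of all genes, and the difference between the 2 sets of genes was not tested. None passed the FDR and 5 had an unadjusted p under 0.05 (edgeR), beside 9.7% of all genes in either direction, and 15 were higher and 33 lower with tamoxifen (median log2 fold change -0.50, 0.19 without corn oil replicate 1). Ifitm2, an abundant membrane protein that restricts viral entry, had 1267, 818, 1316 and 1325 normalised CPM in corn oil replicates 1 to 4 and 434 to 1013 in tamoxifen (log2 fold change -0.81, edgeR adjusted p 0.340). It was thus not highest in corn oil replicate 1. Slfn2, a growth regulator of the schlafen family, had 441 normalised CPM there, 48.5 to 158 in the other corn oil libraries and 30.5 to 140 in tamoxifen (log2 fold change -1.43, edgeR adjusted p 0.435, or -0.60 without corn oil replicate 1). Lgals3bp, a secreted galectin-binding protein, was at -0.54. Of 12 genes of MHC class I presentation none passed the FDR (median -0.28, 0.077 without corn oil replicate 1), and corn oil replicate 1 was highest for 5. H2-K1 and B2m, the class I chain and its light chain, had log2 fold changes of -0.17 and -0.37, and the proteasome genes Psme2 and Psmb10 values of -0.58 and -0.63.

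Markers of the labelled tissue were high in every library: 8 epithelial genes, led by Krt18 and Krt19, summed to 14090 to 30070 normalised CPM in corn oil, with 19570 in replicate 1, and to 13890 to 24680 in tamoxifen. The 9 listed macrophage markers, led by Cd14 and Lyz2, summed to 1420 in corn oil replicate 1, to 951 to 1037 in the other corn oil libraries and to 824 to 2194 in tamoxifen, where replicate 4 was highest. Within the sum Cd14 stood at 249 to 584 in corn oil and 699 to 936 in tamoxifen (log2 fold change 0.95, unadjusted p 0.00237, edgeR adjusted p 0.227), while C1qa, C1qb and C1qc had log2 fold changes of -0.51, -0.61 and -0.45. None of these 9 was highest of the 10 libraries in corn oil replicate 1. Among the corn oil libraries alone, replicate 1 was highest for Cd14, Lyz2 and Cd68, but not for Csf1r, Mrc1, C1qa, C1qb, C1qc or Fcgr1. Of 10 markers fixed for T and NK cells only 2, Cd8a and Nkg7, were listed, and the rest were not analysed here. These 2 and the 4 listed of 5 markers of B and plasma cells had no read in corn oil replicate 1. Neutrophil markers, led by S100a8 and S100a9, summed to 48.2 there and to 2.41 to 155 in the other corn oil libraries. The 9 fibroblast markers, led by Col3a1 and Col1a2, summed to 208 there, 126 to 464 in the others and 132 to 1044 in tamoxifen. Endothelial markers, led by Pecam1 and Emcn, summed to at most 22.1 in any library. Of 5 plasmacytoid dendritic cell markers only Ccr9 and Pacsin1 were summed, to at most 1.45, as Bst2 is itself a member. Acinar markers, almost all Cela1, summed to 149 in corn oil replicate 1 and 17.2 to 204 in the others, with Ctrb1 at 2.09 in corn oil replicate 1. The part of other cells in the interferon-stimulated gene levels was not tested.

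**Figure D5:**
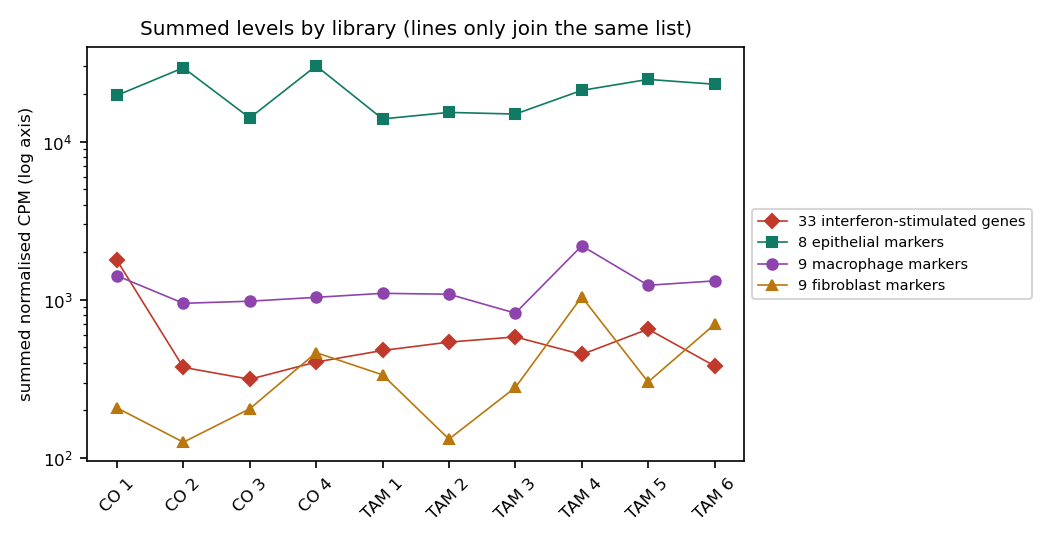
Summed normalised CPM (log axis) in each library (CO, corn oil; TAM, tamoxifen) of the 33 listed interferon-stimulated genes and of epithelial, macrophage and fibroblast markers. The interferon-stimulated genes sum to 1775 in corn oil replicate 1 and to 315 to 653 in the other 9 libraries, while the macrophage markers sum to 1420 there and 824 to 2194 elsewhere. The macrophage sum is led by Cd14 and Lyz2, and its markers differ in direction. Log2 fold changes were 0.95 for Cd14 and -0.51, -0.61 and -0.45 for C1qa, C1qb and C1qc, none past the FDR.

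Set against the promoters, corn oil replicate 1 was the highest of 10 libraries for 9 of the 11 members whose window held the GAAANNGAAA core and for 9 of the 15 listed members whose window did not. It was also highest for 6 of the 7 listed members that had no window. These counts were not tested against each other.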

How the data were processed

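The libraries were made, per the labels' protocols, from RNA extracted with a Qiagen RNeasy micro kit by SMART-seq v4 amplification and Nextera XT, which do not mark strand. The deposited values are raw read counts for each gene symbol, in a single table from the authors. The tools that the submitters' processing notes name are bcl2fastq 2.17, STAR 2.5.2b and featureCounts 1.5.0-p3, and the build is mm10. The sources used here do not give the annotation, the strand setting or the treatment of multi-mapping reads. Every row had a gene name.

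Tests used the deposited counts in edgeR 4.0.16 (R 4.3.3), with the filterByExpr filter (13006 genes kept), TMM factors, a quasi-likelihood F test of tamoxifen (n = 6) against corn oil (n = 4) without covariates, and Benjamini-Hochberg adjustment over all genes at an FDR of 0.05. The SE is the absolute log2 fold change divided by the square root of F. A prior count of 2 entered log2 CPM. Floors of 3 counts cover counting error only.

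The members and lists were chosen with earlier results of these data known. Every member is named. A member is given by library if it passed the FDR (none did), was among the 12 of highest mean log2 CPM or among the 5 of largest SD within corn oil, which gave 17. In tamoxifen the lowest, median and highest values stand for the 6 libraries. Of the pathway lists, the receptors, the 2 most abundant genes and the 2 of smallest p (among genes whose mean log2 CPM was 0 or more) are named, and of the cell type lists the 2 most abundant. Isg15, Ifit3, Ctrb1 and Rtp4 and the reads of other low members were singled out after their values were seen. Positions and exon lengths came from GENCODE M21 on GRCm38, and promoters from RefSeq on GRCm38.p6, of which the 250 bases before the start were used.

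Alternatives were scaling by RLE or upper-quartile factors, dropping the filter, a filter of 5 CPM in 4 libraries, prior counts of 0.5 and 5, DESeq2 1.42.0, limma 3.58.1 voom with sample quality weights, robust dispersion, an FDR of 0.1, leaving out each library, and counting tamoxifen replicates 1 to 3 as 1 sample or leaving them out. The planned comparison of proteins among the Ifit, Oas and Gbp families was not run. Figures were drawn with matplotlib 3.10.9.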

Additional observations from a re-analysis of the deposited data

Results flagged for a closer look

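Dixon's criterion was applied to each of the 33 listed members and to their mean log2 CPM over the 28 tested. In each of the 2 groups it set the highest and the lowest library against the rest of the group. Of these 68 comparisons 24 stood apart, 19 of them because corn oil replicate 1 was far above the other 3 corn oil libraries. For independent, normally distributed values, chance flags about 1 group in 20. That rate cannot be used here, because members were compared as normalised CPM and share the same libraries. Oas2, Oas3, Rsad2 and Ifi44 had no read in the other 3 corn oil libraries. The number of flags is therefore a description and not an excess over chance.

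Among transcription factors and sensors, corn oil replicate 1 stood at 207.5 normalised CPM for Irf7 (others 0.927 to 21.04), at 41.4 for Ifih1 (others 0.956 to 5.88), at 18.3 for Dhx58 (others 1.13 to 2.04) and at 42.4 for Zbp1 (others 0 to 1.54). Among effectors it stood at 68.6 for Ifit1 (others 0 to 3.08), 28.1 for Ifit3 (others 0 to 0.0403), 54.5 for Oasl2 (others 0 to 2.34), 52.0 for Gbp3 (others 0 to 6.97) and 7.14 for Mx2 (others 0 to 0.166). Of effectors near the detection floor it stood at 0.246 for Ifit2, 1.78 for Oas2, 3.08 for Oas3 and 4.25 for Rsad2, with the others at 0 except for Ifit2 in replicate 3, at 0.0403. Of the remaining members it stood at 123 for Isg15 (others 0.762 to 1.61), 104 for Usp18 (others 0.121 to 8.78), 61.4 for Dtx3l (others 8.07 to 17.1), 85.2 for Parp9 (others 8.66 to 14.8), 5.05 for Ifi44 (others 0) and 50.7 for Xaf1 (others 0.213 to 5.76).

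Tamoxifen replicate 5 stood above the other 5 tamoxifen libraries for Dhx58, at 4.43 normalised CPM (others 0.0474 to 1.41), for Oas1a, at 11.6 (others 0.163 to 4.15), for Rsad2, at 4.08 (others 0 to 0.174), and for Ifi44, at 7.91 (others 0 to 1.74). Corn oil replicate 3 stood above its group for Cxcl10, at 1.57 (others 0 to 0.0616). The labels give corn oil replicate 1 no feature that sets it apart from its group.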

How the results depend on the processing

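No member passed the FDR under any alternative that was run, including an FDR of 0.1. The number of all genes past an FDR of 0.05 (5 in edgeR) was 349 in DESeq2, 1251 in limma voom, 18 at an FDR of 0.1, and 0 with tamoxifen replicates 1 to 3 counted as 1 sample, left out, or counted as 1 with corn oil replicate 1 left out. Leaving out 1 library gave 0 to 11. The median log2 fold change of the members was -0.64. It was 0.35 in limma voom and 0.72 without corn oil replicate 1 and with tamoxifen replicates 1 to 3 as 1 sample. Over fits that each left out 1 library its lowest value was -0.84, without corn oil replicate 3, and its highest 1.12, without corn oil replicate 1, which was the only one above 0. The median SD within corn oil (2.29) was 2.99 with a prior count of 0.5 and 1.96 with one of 5. Over fits that each left out 1 corn oil library it was lowest, 1.21, without replicate 1 and highest, 2.44, without replicate 4. RLE or upper-quartile factors, no filter, the stricter filter, DESeq2 and robust dispersion changed the sign of no member they tested. The cause of the differences between tools was not tested.

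In limma voom the sign turned for Irf7 (1.19), Irf9 (0.76), Ifih1 (0.35), Zbp1 (0.35), Ifit1 (0.80), Oasl2 (2.23) and Xaf1 (0.66). With tamoxifen replicates 1 to 3 as 1 sample it turned for Stat2 (-0.47), Gbp2 (-0.033) and Usp18 (-0.16), and without them for the same genes (-1.27, -0.35 and -0.62). With 1 library left out, log2 fold changes ran from -0.23 to 0.69 for Stat2, -1.08 to 2.10 for Irf7, -0.44 to 1.09 for Irf9, -1.03 to 1.45 for Ifih1, -3.45 to 1.95 for Zbp1, -2.05 to 2.95 for Ifit1, -1.04 to 2.64 for Oasl2, -0.026 to 1.45 for Bst2, -0.23 to 2.03 for Gbp2, -2.41 to 3.08 for Isg15, -0.36 to 2.52 for Usp18, -0.66 to 0.65 for Dtx3l, -1.03 to 0.58 for Parp9, -1.45 to 0.19 for Parp14, -0.59 to 0.43 for Ifi35 and -1.32 to 1.16 for Xaf1, each highest without corn oil replicate 1. No paired analysis was possible because the labels carry no replicate numbers shared between the groups.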

Other observations

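Across all 13006 tested genes the largest SD of log2 CPM within corn oil, 5.09, belonged to Rtp4, an interferon-induced chaperone of membrane receptors that was not among the members. It stood at 208, 0.0305, 0 and 0.873 normalised CPM in corn oil replicates 1 to 4, and at 30.8, 37.0, 46.3, 16.4, 22.2 and 0.490 in tamoxifen replicates 1 to 6. Its log2 fold change was -1.03 (edgeR adjusted p 0.909) with all libraries and 6.40 (unadjusted p 0.00223, adjusted p 0.293) without corn oil replicate 1, where it is set against few reads. It was picked after its values were seen.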
